A study of Mus musculus with 6 samples.

Results

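A set of 40 genes that control programmed cell death or respond to the tumour suppressor p53 was followed in wild-type and fluoride-resistant MC3T3-E1 cells. The genes were taken by symbol from the deposited table, which lists 54433 genes, and all 40 symbols were found once each. They comprise 14 genes of the BCL2 family, 11 caspases and apoptosome genes, 6 genes of death receptor signalling, and 9 genes of p53 and its targets. MC3T3-E1 is an established mouse osteoblast-like cell line. The 3 WT libraries came from wild-type cells grown in DMEM and the 3 FR libraries from cells adapted to fluoride along a 10 ppm gradient until they resisted 30 ppm. The FR labels also give exposure to 30 ppm fluoride, so selection and current exposure cannot be told apart. The labels speak of clones but do not say how many the FR cells represent, nor whether the 3 libraries of a group are separate cultures. The p-values therefore measure the spread between these libraries, which may be technical.

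Apoptosis runs along a mitochondrial and a receptor-driven route. In the mitochondrial route, BH3-only proteins sense damage and neutralise the anti-apoptotic guardians or engage BAX and BAK directly, and the pores these form release cytochrome c, which with APAF1 activates caspase-9. In the receptor route, ligands of the tumour necrosis factor family bind death receptors that recruit FADD and caspase-8, and BID links this route to mitochondria. The transcription factor p53 induces genes of both routes, together with genes of growth arrest and antioxidant defence, and its own inhibitor MDM2.

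Expected counts per library ranged from 19246119 in FR1 to 27140662 in WT1, and 3 counts in a library correspond to 0.11 to 0.156 CPM, the count scaled to library size. Such limits cover counting error only. Of 10 osteoblast markers, Ibsp was at 0 in every library. Sp7, Alpl and Bglap had means of at most 0.203 CPM in either group, so the labelled cell type rests here on Runx2 and matrix genes such as Col1a1. All 6 osteoblast markers tested were lower in FR, and the sum of the 10 went from 15700 to 16000 CPM in WT to 4160 to 4210 CPM in FR. The sum of 5 smooth muscle markers went from 590 to 597 CPM to 169 to 172 CPM, almost entirely through Acta2. These markers did not move as a set, since of the 3 tested Acta2 and Tagln were lower and Des was higher. The part of these shifts in the members' values was not tested. The summed level of the 6 macrophage and leukocyte markers lay between 0.78 and 1.57 CPM in WT and between 8.94 and 10.6 CPM in FR, through Csf1r and Cd68. Tyrobp was at 0 in every library, and Ptprc and Adgre1 had means of at most 0.174 CPM.

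Promoter sequences are shown first for genes whose upstream region held matches to the p53 response element, since these genes recur in the values below. The element consists of 2 copies of a 10-base motif, the p53 decamer, with 0 to 13 bases between them. The 250 bases before the start site were searched on both strands in RefSeq promoter windows of GRCm38.p6, of which 34 of the 40 genes had at least 1. Capitals mark decamers. In Bax, Ccng1, Gadd45a and Sesn1 they mark a pair with at most 2 mismatches in all, and in Mdm2 and Trp53 a single exact decamer.
Ccng1, chr11:40755432-40755511, minus strand: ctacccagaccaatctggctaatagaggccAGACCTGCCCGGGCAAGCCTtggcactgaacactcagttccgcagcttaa
Bax, chr7:45467060-45467144, minus strand: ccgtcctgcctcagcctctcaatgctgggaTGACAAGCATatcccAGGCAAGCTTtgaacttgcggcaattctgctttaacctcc
Sesn1, chr10:41887223-41887305, plus strand: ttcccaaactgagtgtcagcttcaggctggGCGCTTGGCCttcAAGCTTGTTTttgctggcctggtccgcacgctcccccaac
Gadd45a, chr6:67037408-67037498, minus strand: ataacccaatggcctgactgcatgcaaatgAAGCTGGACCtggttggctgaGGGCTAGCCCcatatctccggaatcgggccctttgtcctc
Mdm2, chr10:117710905-117710974, minus strand: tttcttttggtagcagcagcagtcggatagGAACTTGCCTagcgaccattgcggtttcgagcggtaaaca
Trp53, chr11:69580254-69580323, plus strand: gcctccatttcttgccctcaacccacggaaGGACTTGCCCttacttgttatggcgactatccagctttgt
The pair in Ccng1 had 1 mismatch and no spacer and began 195 bases before the start. The pairs in Bax, Sesn1 and Gadd45a had 2 mismatches each, with spacers of 5, 3 and 11 bases. An exact decamer lay in 5 of the 8 windows of p53 and its targets and in 7.13% of all 32851 windows, and a pair in 3 of the 8 and in 3.34% of all. Over all 47 windows of the members, 7 held an exact decamer (14.9%) and 4 a pair (8.51%). Besides the sequences shown, 1 window of Bmf held a single exact decamer, 213 bases before the start. The genes of p53 and its targets were listed for their known link to p53, and a match describes letters, not occupancy. The windows of Phlda3 and Gadd45b held no exact decamer.

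Across the 40 genes, 37 passed the filter on low counts and were tested with edgeR, of which 12 were higher in FR, 19 were lower and 6 did not pass. Pmaip1, Bik and Casp1 were too low to test. The share called was 83.8%, against 70.1% of all 14889 genes tested (34.6% higher and 35.5% lower). The members were also more abundant than the tested genes as a whole, with a median of 34.6 against 22.7 CPM. Their changes were not larger, since the median size of the log2 fold change was 0.35 in the members and 0.35 in all genes. A change of at least 2-fold together with an adjusted p under 0.05 was found for 4 members (10.8%) and for 18.8% of all genes. The median log2 fold change (FR over WT) was −0.23 in the members and 0.00 in all genes. CPM of the groups did not overlap for 32 of the 37 members, against 72.4% of all genes. As RNA came from whole cultures, fewer cells that express a gene and less RNA per cell cannot be told apart.

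**Figure D1:**
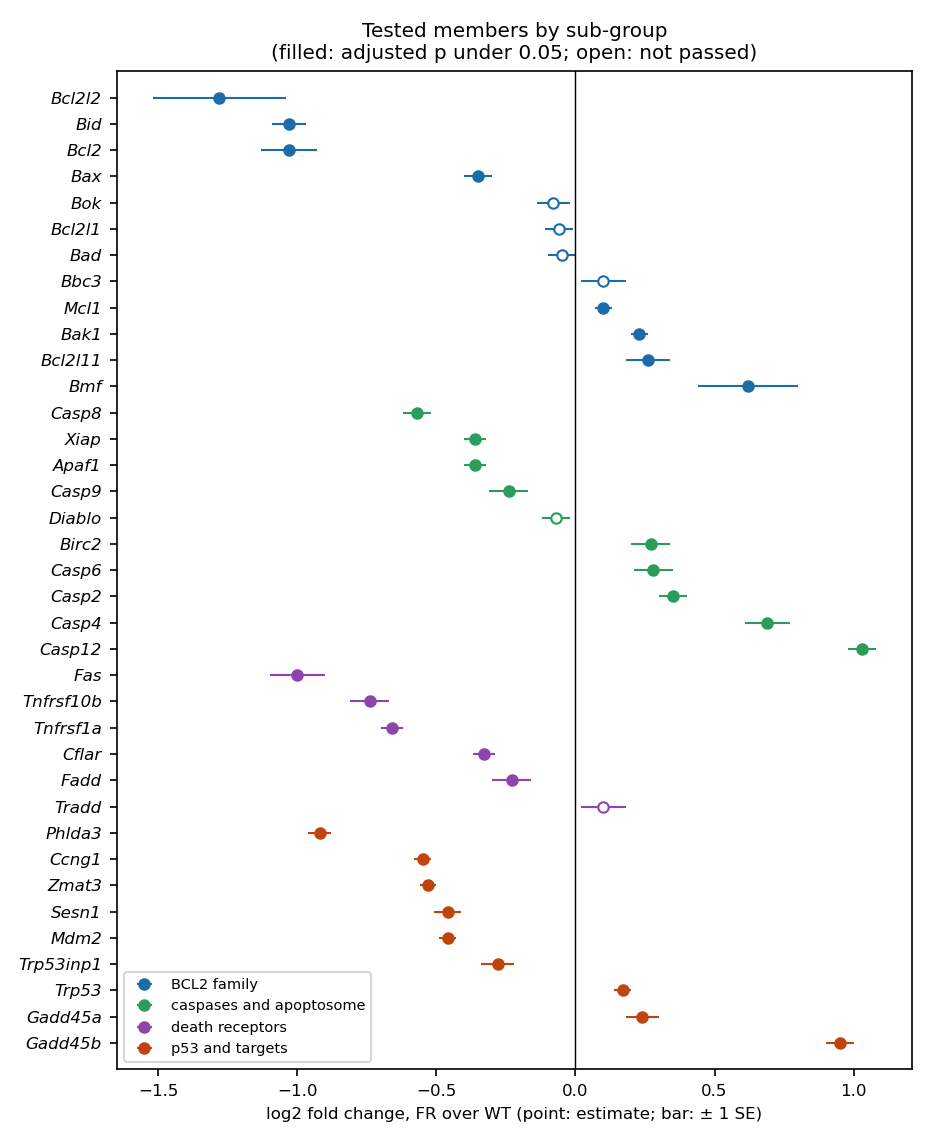
Log2 fold change (FR over WT) of the 37 tested members, with bars of 1 SE, ordered within the 4 sub-groups; filled points have an adjusted p under 0.05. The receptors all lie left of 0, while the caspases range from −0.57 for Casp8 to 1.03 for Casp12.

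In the BCL2 family, 4 of 12 tested genes rose and 4 fell, with a median log2 fold change of −0.06. The share called was 66.7%, against 70.1% of all genes tested. Among the anti-apoptotic guardians, Bcl2 and Bcl2l2 fell, Mcl1 rose slightly and Bcl2l1 did not pass. Bcl2, the founding member, stood at 14.2, 12.5 and 13.6 CPM in WT and at 6.91, 6.15 and 6.71 CPM in FR. All FR values were below all WT values, a log2 fold change of −1.03 ± 0.10 SE (adjusted p = 3.48e-10). Bcl2l2, which encodes BCL-W, was low, with 5.49, 3.72 and 5.36 CPM in WT and 2.55, 1.21 and 2.34 CPM in FR (log2 fold change −1.28 ± 0.24 SE, adjusted p = 0.00017). The groups did not overlap. Exons of Bcl2l2 overlap those of a same-strand locus, Gm20521, which stood at 64.2 ± 4.54 CPM in WT and 60.2 ± 2.19 CPM in FR (SD, n = 3 each), so the value for Bcl2l2 depends on how reads were divided between them.

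Mcl1, a short-lived guardian, was the most abundant of the 4 per length of gene, and Bcl2l1, which encodes BCL-XL, the next. Mcl1 stood at 170, 166 and 177 CPM in WT and at 182, 182 and 184 CPM in FR. The FR values were all higher, by a log2 fold change of 0.10 ± 0.03 SE (adjusted p = 0.00615). This small rise no longer passed without WT1 (adjusted p = 0.0545), without WT2 (adjusted p = 0.122) or with no filter on low counts (adjusted p = 0.0603). Bcl2l1 overlapped between the groups, at 41.1, 40.7 and 45.3 CPM in WT and 40.6, 40.7 and 40.4 CPM in FR, and the 95% interval of its log2 difference ran from −0.16 to 0.04.

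Divided by gene length, the guardians summed to 69.2, 67.2 and 72.9 CPM per kb in WT and 70.8, 70.3 and 71.1 CPM per kb in FR, which overlapped. Within this sum the share of Mcl1 was 71.7% ± 0.590 in WT and 75.5% ± 0.249 in FR (SD, n = 3 each), with no overlap. Bcl2 held 2.68% ± 0.156 and 1.3% ± 0.0715, and Bcl2l2 1.98% ± 0.356 and 0.82% ± 0.288. The guardians that fell were the least abundant of the 4 per length, and Bcl2l1 held 23.6% ± 0.54 of the sum in WT and 22.3% ± 0.22 in FR.

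**Figure D2:**
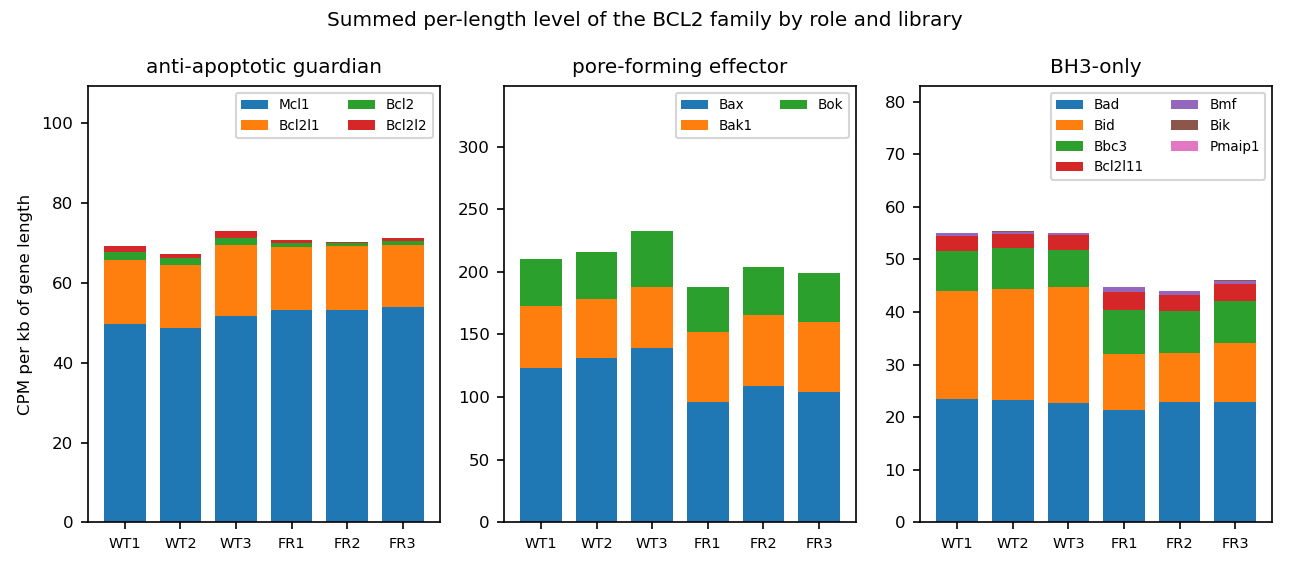
Summed level of BCL2 family genes (CPM per kb of gene length) in each library, stacked by gene, with a panel for each role and its own axis. The guardian bars overlap between WT and FR, while the BH3-only bars lie at 55.1 to 55.3 in WT and 44 to 46 in FR. Of the BH3-only genes, only Bid was called lower.

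The pore-forming effectors moved in different directions. Bax fell from 107, 114 and 121 CPM in WT to 83.4, 94.2 and 90 CPM in FR (log2 fold change −0.35 ± 0.05 SE, adjusted p = 1.76e-05). Bak1 rose from 117, 112 and 116 CPM to 134, 136 and 134 CPM (0.23 ± 0.03 SE, adjusted p = 2.70e-07). In neither gene did the groups overlap. Bok, a less well understood relative, overlapped at 35.2 ± 3.19 and 33.1 ± 1.34 CPM (SD, n = 3 each; 95% interval of the log2 difference −0.20 to 0.03). Per length, the 3 effectors summed to 219 ± 11 CPM per kb in WT and 197 ± 8.05 in FR, without overlap, and Bak1 made up 22.0% ± 1.17 of that sum in WT and 28.7% ± 0.962 in FR. Without division by length the sums overlapped (264 ± 9.88 and 257 ± 7.79 CPM), since Bak1, which rose, is the longest of the 3 genes and weighs more there.

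Of the 7 BH3-only genes, 5 could be tested. Bid, whose product is cleaved by caspase-8 and then acts on mitochondria, fell from 44.7, 46.3 and 48.2 CPM in WT to 23.3, 20.5 and 24.5 CPM in FR. This was the clearest change of the family, with widely separated groups (log2 fold change −1.03 ± 0.06 SE, adjusted p = 4.76e-15). Its last exon overlaps Bcl2l13 on the opposite strand in the GRCm38 annotation, and Bcl2l13 stood at 76.3 ± 3.03 CPM in WT and 79.1 ± 2.98 CPM in FR. Bmf, a sensor linked to the cytoskeleton, rose from 2.27, 2.13 and 2.22 CPM to 3.95, 3.12 and 3.21 CPM (0.62 ± 0.18 SE, adjusted p = 0.00384). Bcl2l11, which encodes BIM, rose from 13.7 ± 0.679 to 16.4 ± 0.839 CPM (SD, n = 3 each; adjusted p = 0.00539). Both were higher in every FR library than in any WT library, at levels well below Bid in WT.

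Bbc3, which encodes the p53-induced PUMA, stood at 14.0, 14.2 and 12.8 CPM in WT and 15.2, 14.5 and 14.4 CPM in FR. The values did not overlap, yet the difference did not pass (adjusted p = 0.273, 95% interval −0.06 to 0.26). Bad, regulated by phosphorylation, overlapped at 33.7 ± 0.658 and 32.5 ± 1.24 CPM. It shares exonic sequence with Gpr137 on the opposite strand. Pmaip1, which encodes the p53-induced NOXA, was listed at 0 in every library, which may be a level too low to detect or a failure of the count estimate, and Bik had 1 or 2 counts in each. The summed BH3-only level fell from 55.2 ± 0.146 to 44.9 ± 1.04 CPM per kb (SD, n = 3 each), and the share of Bid in it from 38.4% ± 1.46 to 23.1% ± 1.64. Bid itself went from 21.2 ± 0.805 to 10.4 ± 0.949 CPM per kb, and no other BH3-only gene was called lower. Bad then held 49.8% ± 2.06 of the sum in FR, against 42.0% ± 0.816 in WT.

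**Figure D3:**
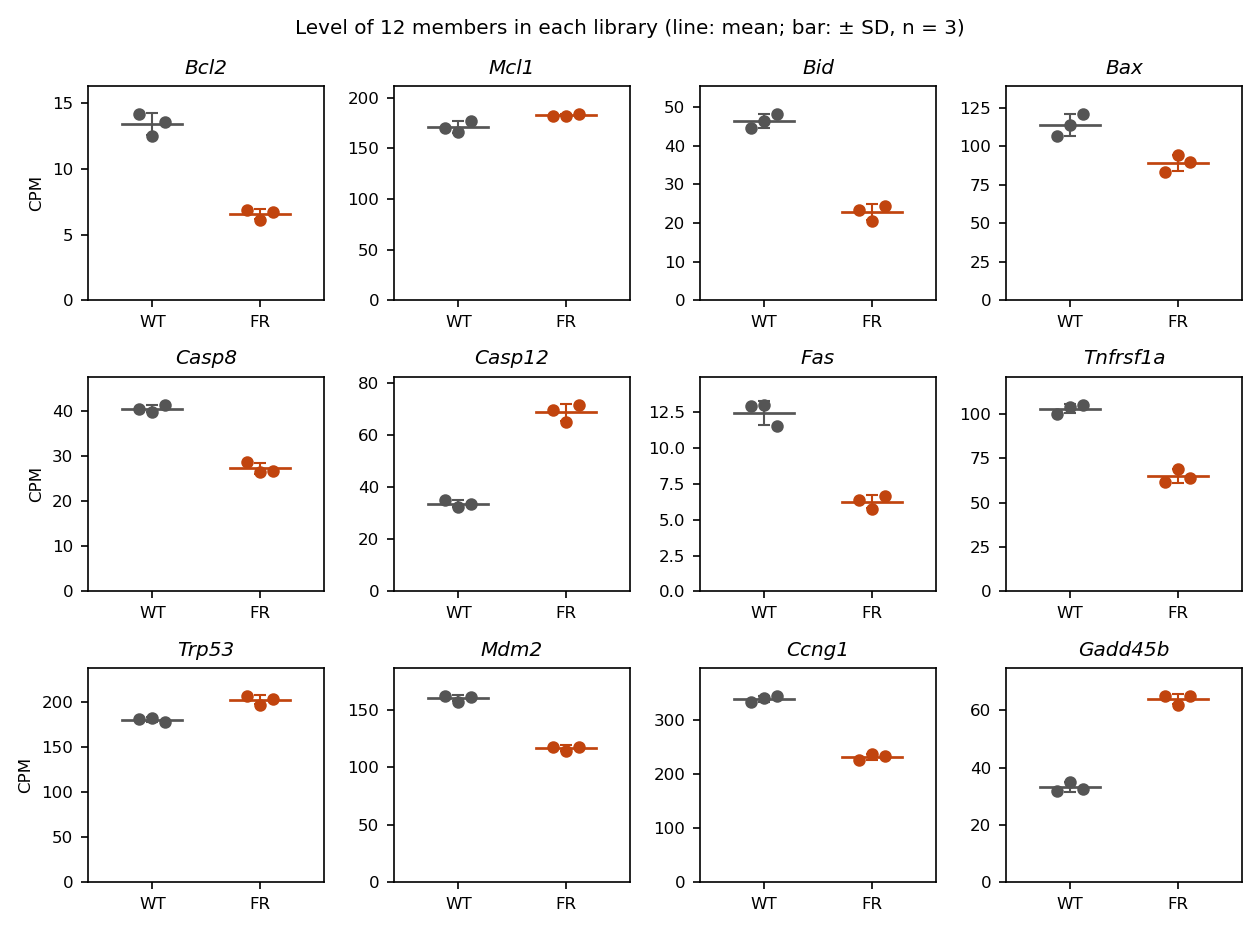
CPM of 12 members in each library, with each axis starting at 0; points are libraries, lines the mean and bars the SD of 3 libraries. In each of these 12 panels the WT and FR points are separate. Casp12 and Gadd45b lie higher in FR by 2.04-fold and 1.93-fold, and Mcl1 and Trp53 show the smallest steps.

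Among caspases and apoptosome genes, 5 of 10 tested genes rose and 4 fell, with a median log2 fold change of 0.10. The share called was 90%, against 70.1% of all genes tested (34.6% higher and 35.5% lower). Of the initiators, Casp8, which starts the receptor route, fell from 40.4, 39.9 and 41.4 CPM in WT to 28.8, 26.6 and 26.7 CPM in FR (log2 fold change −0.57 ± 0.05 SE, adjusted p = 1.16e-10). Casp9, the initiator of the mitochondrial route, fell less, from 19, 19 and 17.6 to 16.6, 15.3 and 15.3 CPM (−0.24 ± 0.07 SE, adjusted p = 0.00568). Casp2, an initiator tied to DNA damage and mitotic stress, rose from 34.4, 37.8 and 35.8 to 45.8, 43.4 and 49.0 CPM (0.35 ± 0.05 SE, adjusted p = 7.85e-07). None of these 3 genes overlapped between the groups. Casp6, an effector caspase that cleaves nuclear lamins, rose from 17.9 ± 0.834 to 21.8 ± 1.52 CPM (SD, n = 3 each; adjusted p = 0.000845).

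The caspases of the inflammatory class rose where they were expressed. Casp12, associated with the endoplasmic reticulum, went from 35.0, 32.3 and 33.5 CPM in WT to 69.6, 65.1 and 71.5 CPM in FR. It was the only member that rose at least 2-fold (log2 fold change 1.03 ± 0.05 SE, adjusted p = 1.39e-17). Casp4, the sensor of intracellular lipopolysaccharide also known as caspase-11, went from 16.9, 17.7 and 15.8 to 24.8, 25.4 and 31.4 CPM (0.69 ± 0.08 SE, adjusted p = 3.63e-07). FR3 was the highest library for both. Casp1, the inflammasome caspase, was not tested, as WT libraries held 3, 2 and 3 counts of it and FR libraries 2, 0 and 0. Casp1, Casp4 and Casp12 follow each other on chromosome 9 with no other protein-coding gene between them in the GRCm38 annotation. The macrophage and leukocyte markers Csf1r and Cd68 rose in the same libraries. Their part in the caspase values was not tested.

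In the apoptosome, Apaf1, its scaffold, fell from 67.9, 68.8 and 68.3 CPM in WT to 53.6, 53.6 and 52.2 CPM in FR (log2 fold change −0.36 ± 0.04 SE, adjusted p = 2.61e-09). Xiap, which binds and inhibits caspases, fell by the same log2 amount, from 93.3, 88.9 and 88.8 to 66.0, 75.7 and 69.4 CPM (adjusted p = 7.48e-08). An activator and an inhibitor of the same caspases thus both fell, and neither overlapped between the groups. Birc2, the ubiquitin ligase cIAP1 of receptor complexes, rose from 23.8 ± 1.59 to 28.8 ± 2.46 CPM (SD, n = 3 each; adjusted p = 0.000824). Diablo, which relieves inhibition by XIAP, overlapped, with 46.6, 49.7 and 47.6 CPM in WT and 44, 45.8 and 47 CPM in FR (95% interval of the log2 difference −0.16 to 0.02).

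The 3 death receptors among the members fell, and of 6 member genes of this route none rose and 5 fell, with 1 not passing (median log2 fold change −0.49). At the same threshold 35.5% of all genes tested were lower. Fas, the receptor of Fas ligand, went from 12.9, 13 and 11.5 CPM in WT to 6.39, 5.75 and 6.66 CPM in FR, just short of a 2-fold fall (adjusted p = 1.47e-09). Tnfrsf10b, the mouse receptor for TRAIL, went from 41.2, 36.7 and 40.1 to 24.3, 25.7 and 20.7 CPM (−0.74 ± 0.07 SE, adjusted p = 8.23e-09). Tnfrsf1a, the main receptor for tumour necrosis factor, went from 100, 104 and 105 to 61.9, 69.2 and 64 CPM (−0.66 ± 0.04 SE, adjusted p = 8.72e-15). In all 3 receptors every FR library lay below every WT library. Per length, Tnfrsf1a was the most abundant receptor of the 3 in both groups, at 47.7 ± 1.14 CPM per kb in WT and 30.2 ± 1.73 in FR (SD, n = 3 each). Tnfrsf10b followed at 12.4 ± 0.738 and 7.42 ± 0.819 CPM per kb, and Fas was lowest at 8.42 ± 0.562 and 4.23 ± 0.314.

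The adaptors changed less than the receptors. Fadd, which joins receptors to caspase-8, went from 19.7, 20.6 and 21.0 CPM in WT to 17.5, 17.5 and 17.4 CPM in FR (−0.23 ± 0.07 SE, adjusted p = 0.0045). Cflar, the caspase-8-like inhibitor c-FLIP, went from 61.3, 60.6 and 60.5 to 46.6, 47.7 and 50.9 CPM (−0.33 ± 0.04 SE, adjusted p = 9.41e-08). The groups were separate in both genes. Cflar and Casp8 are neighbours on chromosome 1, and both fell. Tradd, the adaptor of the tumour necrosis factor receptor, overlapped at 14.1, 15.3 and 16.8 CPM in WT and 17.6, 16.2 and 15.6 CPM in FR (95% interval of the log2 difference −0.06 to 0.26).

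All 9 genes of p53 and its targets passed the test, 3 higher and 6 lower (median log2 fold change −0.46). Of all genes tested, 70.1% passed, 34.6% higher and 35.5% lower, and the groups did not overlap in 72.4%. Trp53, which encodes p53 itself, rose from 181, 183 and 178 CPM in WT to 207, 197 and 204 CPM in FR, by 12.2% (log2 fold change 0.17 ± 0.03 SE, adjusted p = 1.14e-05). Mdm2, the ubiquitin ligase that degrades p53 and is itself a target, fell from 162, 157 and 161 to 118, 114 and 118 CPM (−0.46 ± 0.03 SE, adjusted p = 1.23e-13). The messenger RNAs of p53 and of its inhibitor thus moved in opposite directions, each with separate groups. Protein level and activity of p53 were not measured.

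The other lower genes were known targets. Phlda3, an inhibitor of AKT signalling, fell from 124, 133 and 134 CPM in WT to 69.4, 70.4 and 66.9 CPM in FR (log2 fold change −0.92 ± 0.04 SE, adjusted p = 7.91e-19). Ccng1, which encodes cyclin G1 and carries the best decamer pair shown above, fell from 333, 340 and 344 to 226, 237 and 233 CPM (−0.55 ± 0.03 SE, adjusted p = 1.14e-16). Zmat3, an RNA-binding protein gene, fell from 146 ± 4.06 to 101 ± 3.18 CPM, and Sesn1, which encodes the stress-induced mTORC1 inhibitor sestrin 1, from 50.6 ± 1.37 to 36.9 ± 1.51 CPM (SD, n = 3 each). Trp53inp1, which promotes p53 activity and autophagy, fell least, from 31.2 ± 0.529 to 25.7 ± 1.59 CPM (−0.28 ± 0.06 SE, adjusted p = 8.94e-05). For these 5 genes every FR library was below every WT library, as for 5454 of all 14889 genes tested.

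The GADD45 genes, stress sensors that act on MAP kinases and DNA repair, went the other way. Gadd45b rose from 31.7, 35.0 and 32.5 CPM in WT to 64.8, 61.9 and 64.9 CPM in FR (log2 fold change 0.95 ± 0.05 SE, adjusted p = 8.53e-17). Gadd45a, the member best known as a p53 target, rose from 22.3, 23.6 and 24.1 to 27.2, 27.1 and 28.4 CPM (0.24 ± 0.06 SE, adjusted p = 0.000778). Groups were separate in both. Of the genes whose upstream sequence is shown above, Ccng1, Bax, Sesn1 and Mdm2 were lower and Gadd45a and Trp53 higher, as was Bmf, so genes with these letters upstream moved either way.

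A list of 80 further genes of the same pathways was also followed. Of the 65 tested, 20 were higher and 24 lower, or 67.7% called, close to the 70.1% of all genes, and their median log2 fold change was −0.01 (also −0.01 with Ripk3, which had no count in FR, at its bound). In the BCL2 family the mitophagy genes Bnip3l (log2 fold change 0.18 ± 0.04 SE) and Bnip3 (0.16 ± 0.04) rose slightly, Bcl2l12 did not pass (0.14 ± 0.10) and none of the 5 tested fell. Of the genes grouped with the caspases, the pore-forming gasdermin gene Gsdme fell (−1.44 ± 0.10 SE) and the mitochondrial flavoprotein gene Aifm1 rose (0.45 ± 0.04). On the receptor side 6 of 15 tested genes rose and 4 fell. Receptors of the family among those that rose were Tnfrsf21, the death receptor DR6, from 12.4 ± 0.187 to 21.1 ± 1.09 CPM, Tnfrsf1b, the second receptor for tumour necrosis factor, from 66.6 ± 0.39 to 89.5 ± 1.14 CPM, and Tnfrsf12a, the receptor of TWEAK, from 180 ± 4.59 to 210 ± 2.31 CPM. They were named after their values were seen. Tnfrsf11b, which encodes the decoy receptor osteoprotegerin that also binds TRAIL, fell from 42.4 ± 1.38 to 10.9 ± 0.754 CPM (SD, n = 3 each). Tnfaip3, a brake on NF-kB, fell (−1.77 ± 0.06 SE) and Faf1, a FAS-associated factor, rose (0.59 ± 0.03).

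Among the 29 further p53-linked genes tested, 13 were lower, 6 higher and 10 did not pass. Cdkn1a, the cell cycle inhibitor p21 and the best known p53 target, fell by a log2 value of −0.76 ± 0.03 SE. Psrc1, a spindle protein gene, fell (−1.04 ± 0.04 SE) and Plk2, a polo-like kinase gene, rose (0.62 ± 0.03). The annotation deposited with the table assigns 72 tested genes to the p53 signaling pathway. Without the 16 that are members here, 29 of the other 56 were lower, 10 higher and 17 not passed, with a median log2 fold change of −0.18. The share called was 69.6% of these 56 and 65.5% of the 29 above. Of all genes tested, 70.1% were called, 34.6% higher and 35.5% lower. The Apoptosis pathway of the same annotation was balanced, with 46 higher and 47 lower among 137 tested genes that are not members (median 0.07).

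**Figure D4:**
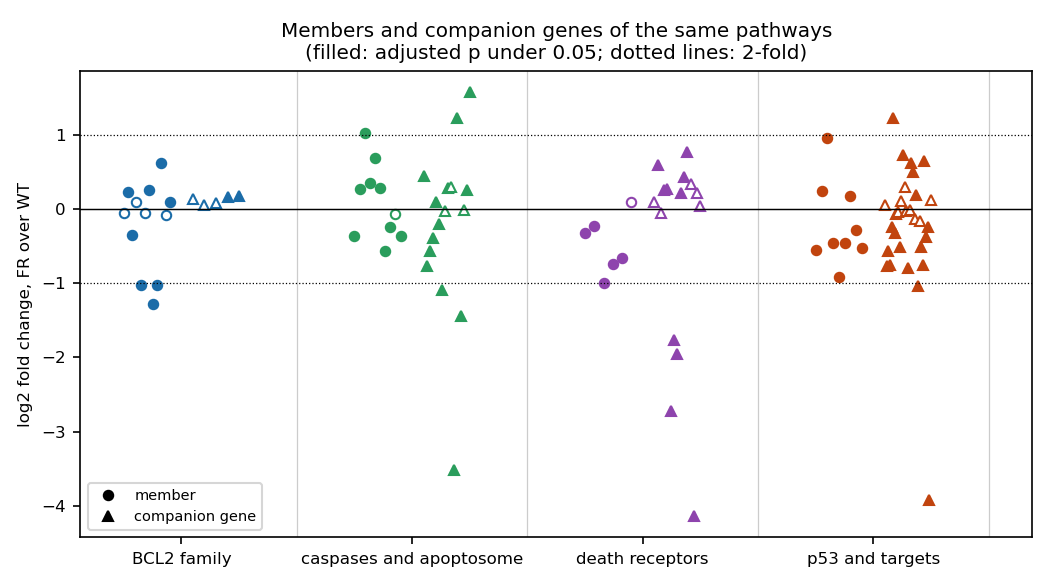
Log2 fold change (FR over WT) of tested members (circles) and of the further pathway genes (triangles) in the 4 sub-groups; filled symbols have an adjusted p under 0.05 and dotted lines mark 2-fold. Ripk3, with no count in FR, is drawn at its bound of −2.72, computed against 3 counts per library. Most p53-linked symbols lie below 0, while the further genes of the death receptor panel spread to both sides.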

How the data were processed

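RNA sequencing of poly(A) RNA gave the libraries. The submitters' processing notes name fastp, HISAT, RSEM and the build GRCm39, and versions, settings and strand handling are not given in the sources used here. The authors deposited expected counts per gene, not scaled to depth, with a length per gene whose definition is not given. Expected counts were rounded and fitted with edgeR 4.0.16 in R 4.3.3 (filterByExpr, TMM, robust quasi-likelihood F-test of FR against WT), and p-values were adjusted by Benjamini-Hochberg over all 14889 genes tested, at a threshold of 0.05. The fit was also run on simulated counts with few changed genes and the same spread set for every gene. That run cannot show how the fit behaves under a change as broad as the one here. CPM use TMM-scaled library sizes, and CPM per kb the deposited length. Error values beside means are SD. Of the members, 10 share exonic sequence with another gene in the GENCODE annotation of GRCm38, which served for overlaps and neighbours only.

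The members and lists were chosen with earlier results of these data known. Values are given per library for the 2 members of each role with the largest change and for those against their sub-group's majority, and a mean or a fold change for the 3 further genes of each sub-group with the smallest adjusted p plus Cdkn1a. Some genes that this rule names are not reported here. Alternatives were median-of-ratios factors, library size alone, no filter, a minimum mean of 1 CPM, an ordinary in place of a robust fit, a replicate block, omission of single libraries or of the 10 most abundant genes, DESeq2 1.42.0 and limma-voom 3.58.1. Protein sequences were not used here.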

Additional observations from a re-analysis of the deposited data

How the results depend on the processing

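All 31 called members kept their direction and call under the 15 alternative fits, except Mcl1, whose call ended in 3 of them. Counts of members higher and lower were 12 and 19 with DESeq2, limma-voom and library size alone. Leaving out 1 library at a time gave 11 to 12 higher and 19 lower members, with 4776 to 4915 genes higher and 5121 to 5306 lower overall. Within sub-groups these fits gave 3 to 4 higher and 4 lower in the BCL2 family, and the same counts as all libraries in the other sub-groups, and 18 to 21 higher and 24 to 26 lower among the 80 further genes. The ratio of the summed effector level, 0.897 per length, was 0.973 without division by length, because Bak1 weighs more and Bax less there. Same-numbered libraries did not deviate together (correlations −0.017, −0.004 and −0.028). This shows no shared deviation, but cannot tell whether the numbers denote paired cultures. With the replicate number as a block, 12 members were higher and 19 lower, and 5070 genes were higher and 5222 lower. Depth limits Bik and Casp1, with at most 3 counts per library, and Bcl2l2 and Bmf are the least precise tested members.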

Other observations

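Genes that the deposited annotation places under p53 binding, none of which is a member here, were mostly higher in FR. Of 62 tested, 38 were higher and 8 lower (74.2% called), with a median log2 fold change of 0.20. Of all genes tested, 70.1% were called, 34.6% higher and 35.5% lower. Without the 16 members it holds, the p53 signaling pathway of the same annotation leaned lower, with 10 higher and 29 lower among 56 tested (median −0.18). Genes placed under inhibition of cysteine-type endopeptidases in apoptosis were mostly lower, with 15 lower and 2 higher among the 18 tested that are not members (median −0.55). Both terms were singled out after their values were seen, from all deposited terms that name apoptosis or p53 and hold at least 10 tested genes, and the difference between these gene groups was not tested. Trp63, which encodes the p53 relative p63, fell from 14.3 ± 0.779 to 0.978 ± 0.535 CPM (SD, n = 3 each), and Ddb2, a DNA repair gene known as a p53 target in human cells, rose from 5.72 ± 0.137 to 13.4 ± 0.984 CPM. Both were chosen after their values were seen.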
